A study of Mus musculus with 10 samples.

Results

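The transcripts described here are those of 6 receptors that guide B lineage cells within the bone marrow and out of it, Cxcr4, Cxcr5, Ccr6, Ccr7, Ccr10 and S1pr1, together with Klf2, a transcription factor tied to lymphocyte exit. They were picked by name, as 7 of the 23420 genes in the count files, and all 7 passed the filter on low counts that left 14161 genes for testing. RNA was sequenced from sorted bone marrow cells of C57BL/6 mice in 4 groups: small pre-B cells with a knockout of Mta2 driven by Vav (Mta2_VavKO, 3 libraries), small pre-B cells of control mice (3 libraries), Mta2_VavKO pro-B cells (2 libraries) and control pro-B cells (2 libraries). Mta2 is a subunit of the NuRD complex, which deacetylates histones and moves nucleosomes, and Vav promoter activity covers the blood lineages in general, so the deletion is not limited to B cells. Small pre-B cells were B220+ IgM- CD43- cells gated for size and pro-B cells were B220+ IgM- CD43+ cells. The labels give no age or sex and do not say which alleles the controls carry or whether libraries came from separate animals, so p-values measure the spread between libraries, which may be technical.

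Developing B cells are held in the marrow by CXCL12, a chemokine made by stromal cells and read by CXCR4, and they leave toward the blood along a gradient of sphingosine-1-phosphate read by S1PR1. KLF2 is best known from T cells, where it drives S1pr1. CXCR5 (ligand CXCL13) and CCR7 (ligands CCL19 and CCL21) steer mature B cells to follicles and to the border with the T cell zone of lymphoid organs, CCR6 (ligand CCL20) marks mature B cells, and CCR10 (ligands CCL27 and CCL28) brings antibody-secreting cells to mucosal tissue.

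Libraries held 17805507 to 52127004 counts, so that 3 counts equalled 0.0540 to 0.173 CPM (counts scaled to library size after trimmed mean of M values scaling). Mta2 stood at 179 to 199 CPM in small pre-B Mta2 KO libraries and 246 to 438 CPM in small pre-B controls, and at 163 to 166 CPM in pro-B Mta2 KO libraries and 375 to 436 CPM in pro-B controls. The drop passed the test in small pre-B cells (log2 fold change -0.93, edgeR adjusted p = 0.0420) and not in pro-B cells (-1.31, adjusted p = 0.212). In 12 of 19 alternatives the Mta2 drop no longer passed in small pre-B cells, and in 4 of 19 it passed in pro-B cells; counts sum all exons, so exons outside the deleted part count too. Il2ra, which marks the pre-B stage, was at 120 to 152 CPM in small pre-B Mta2 KO libraries and 263 to 437 CPM in small pre-B controls, and at 6.76 to 20.5 CPM in pro-B libraries. The pro-B gate held much RNA of other cells: the 9 listed plasmacytoid dendritic genes summed to 312 to 474 CPM in small pre-B libraries and 3855 to 4359 CPM in pro-B libraries, and the 15 myeloid genes found in the files to 122 to 457 CPM in small pre-B and 9710 to 21793 CPM in pro-B libraries. Small pre-B Mta2 KO libraries 1 and 2 held Xist RNA (2518 and 2942 CPM, against at most 31.4 CPM in the other 8). Y-linked genes summed to 8.13 and 0.0790 CPM in these 2 libraries and to 224 to 674 CPM in the other 8. Sex, as read from these RNAs, was thus partly mixed with the knockout in small pre-B cells, and its part was not tested. Small pre-B control 3 stood apart with 0.953% of its counts in histone genes, against at most 0.0399% elsewhere. File headers place all pro-B libraries in a different processing folder from all small pre-B libraries, so stage and processing round cannot be told apart.

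Promoters are shown for Klf2 and Cxcr4, which both rose between the stages. The RefSeq promoter table (GRCm38.p6, 250 bases before and 50 after the annotated start) matched 3 of the 7 genes by symbol. Each sequence reads 5′ to 3′ along the gene's own strand. Capitals in Klf2, at chr8:72318812-72319111 on the plus strand, mark a MEF2-type site (CTANNNNTAG) and a CACCC box on the opposite strand. A CACCC box in the Cxcr4 window is left in lower case. Capitals in Cxcr4, at chr1:128592250-128592549 on the minus strand, mark a pair of overlapping NRF1-type sites (GCGCATGC) and a pair of overlapping TATA boxes (TATAAA, either strand).
Klf2: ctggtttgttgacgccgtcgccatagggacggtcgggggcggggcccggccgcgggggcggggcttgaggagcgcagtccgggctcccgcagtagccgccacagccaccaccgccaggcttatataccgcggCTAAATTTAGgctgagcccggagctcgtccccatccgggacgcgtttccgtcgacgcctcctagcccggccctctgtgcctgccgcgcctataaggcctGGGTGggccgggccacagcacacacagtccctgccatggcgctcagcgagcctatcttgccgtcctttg
Cxcr4: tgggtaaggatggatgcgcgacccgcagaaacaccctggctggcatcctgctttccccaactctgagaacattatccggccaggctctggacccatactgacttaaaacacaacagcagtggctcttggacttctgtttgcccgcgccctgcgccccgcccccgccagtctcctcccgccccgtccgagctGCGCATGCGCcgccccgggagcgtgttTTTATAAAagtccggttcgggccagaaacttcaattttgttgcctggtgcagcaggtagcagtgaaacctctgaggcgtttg
The Klf2 site starts 118 bases before the annotated start, and MEF2 factors downstream of the kinase ERK5 (Mapk7) are known to drive Klf2 in endothelial cells. Of 32851 RefSeq promoters of the same length searched on both strands, 3.69% held the MEF2-type letters, 57.5% CACCC, 13.6% TATAAA and 2.71% the NRF1-type letters. A FOXO-type site (GTAAACA), present in 3.65% of promoters, was not found in these windows. These motifs were chosen after the sequences were seen, and a match describes letters only.

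Between the stages Cxcr4, Ccr7, S1pr1 and Klf2 were higher in small pre-B cells in both genotypes and Cxcr5 in Mta2 KO cells, whereas Ccr10 was lower in both. In controls 5 of the 7 genes passed the test (4 higher and 1 lower in small pre-B cells), against 55.4% of all tested genes (26.0% higher, 29.4% lower). In Mta2 KO cells 6 passed (5 higher, 1 lower), against 51.3% of all tested genes (24.0% higher, 27.3% lower). Tests are edgeR quasi-likelihood tests with Benjamini-Hochberg adjustment over all 14161 genes and a threshold of 0.05. Libraries of the 2 stages did not overlap for 5 genes in controls and 6 in Mta2 KO cells, against 73.0% and 75.9% of all tested genes. The counts without overlap lie near that background. Ccr10 passed the count filter only through the pro-B libraries, where it is high, so the 1 lower gene in each count is a description only.

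**Figure D1:**
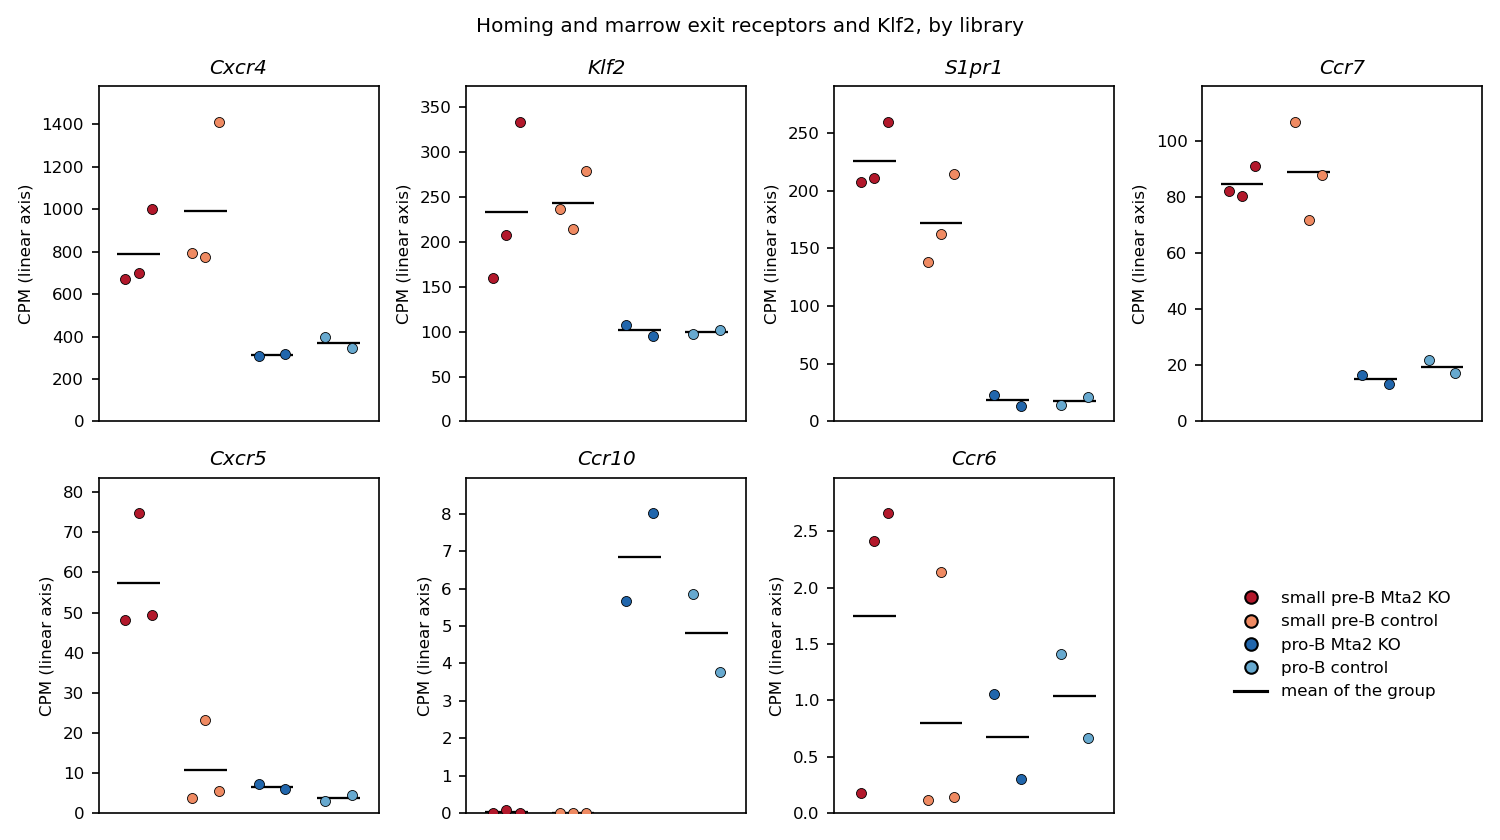
CPM of each gene (linear axes from 0, 1 panel per gene) in the 10 libraries, with points for libraries and lines for group means; groups run from small pre-B Mta2 KO and small pre-B control to pro-B Mta2 KO and pro-B control. Cxcr4, Klf2, S1pr1 and Ccr7 are higher in all 6 small pre-B libraries than in all 4 pro-B libraries, Ccr10 is the reverse, and Cxcr5 is highest in the 3 small pre-B Mta2 KO libraries.

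S1pr1, the exit receptor, rose most among the genes that passed upward in both genotypes. It stood at 207, 211 and 259.6 CPM in small pre-B Mta2 KO libraries 1 to 3 and at 23.3 and 13.8 CPM in pro-B Mta2 KO libraries 1 and 2. In controls it stood at 138, 163 and 214 CPM in small pre-B libraries 1 to 3 and at 14.4 and 21.5 CPM in pro-B libraries 1 and 2. Every small pre-B library lay far above every pro-B library. The difference was 12.2-fold in Mta2 KO cells (log2 3.61 ± 0.31 SE, adjusted p = 2.71e-05) and 9.56-fold in controls (log2 3.26 ± 0.31 SE, adjusted p = 4.35e-05). The gene lies at 3:115710433-115715055 on the minus strand (mm10), and counts cover its 2 exons of 3029 bases. In sorted bulk samples, fewer cells that carry a transcript and less RNA per cell cannot be told apart, and the RNA of other cells in the pro-B gate, given above, moves with every stage difference; its part was not tested.

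Ccr7 followed a like course with tighter groups. It stood at 82.4, 80.5 and 91.2 CPM in small pre-B Mta2 KO libraries and 16.8 and 13.3 CPM in pro-B Mta2 KO libraries, and at 107, 71.9 and 88.0 CPM in small pre-B controls and 21.8 and 17.4 CPM in pro-B controls. No small pre-B library came near the pro-B range. The rise was 5.63-fold in Mta2 KO cells (log2 2.49 ± 0.20 SE, adjusted p = 1.89e-05) and 4.54-fold in controls (log2 2.18 ± 0.20 SE, adjusted p = 3.40e-05). The gene lies at 11:99144199-99155077 on the minus strand.

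Cxcr4, the receptor for CXCL12 and the marrow retention signal, was the most abundant of the 7 genes in every group. It stood at 669.8, 702 and 1000.2 CPM in small pre-B Mta2 KO libraries and 307 and 318 CPM in pro-B Mta2 KO libraries, and at 796, 774 and 1412 CPM in small pre-B controls and 398 and 345 CPM in pro-B controls. Control 3, the library with many histone counts, was the highest and separated the small pre-B controls widely. Cxcr4 rose 2.53-fold in Mta2 KO cells (log2 1.34 ± 0.29 SE, adjusted p = 0.00396) and 2.68-fold in controls (log2 1.42 ± 0.29 SE, adjusted p = 0.00275); without control 3 the rise in controls was 1.08 on the log2 scale (adjusted p = 0.000925). The retention receptor and the exit receptor were thus both higher at the later stage, S1pr1 by the larger factor. The gene lies at 1:128588199-128592299 on the minus strand.

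Klf2 stood at 159, 207 and 333 CPM in small pre-B Mta2 KO libraries and 108 and 95.7 CPM in pro-B Mta2 KO libraries, and at 236, 214 and 279 CPM in small pre-B controls and 96.9 and 102 CPM in pro-B controls. The stages did not overlap in either genotype, although the 3 small pre-B Mta2 KO libraries spread over a wider range than the controls and enclosed them. Klf2 rose 2.29-fold in Mta2 KO cells (log2 1.20 ± 0.27 SE, adjusted p = 0.00557) and 2.45-fold in controls (log2 1.29 ± 0.27 SE, adjusted p = 0.00356). Without pro-B Mta2 KO 2 the rise in Mta2 KO cells was 1.11 on the log2 scale and did not pass (adjusted p = 0.0535). The gene lies at 8:72319062-72321654 on the plus strand.

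Cxcr5, the follicle homing receptor, passed the stage test in Mta2 KO cells and not in controls. It stood at 48.2, 74.7 and 49.5 CPM in small pre-B Mta2 KO libraries, against 7.15 and 5.95 CPM in pro-B Mta2 KO libraries. In controls it stood at 3.68, 23.2 and 5.48 CPM in small pre-B libraries, against 3.06 and 4.48 CPM in pro-B libraries. All Mta2 KO small pre-B libraries were high, whereas of the small pre-B controls control 2 lay far above the pro-B range, control 3 just above it and control 1 within it. The rise was 8.77-fold in Mta2 KO cells (log2 3.13 ± 0.72 SE, adjusted p = 0.00587) and passed the test, although not without pro-B Mta2 KO 2 (log2 3.003, adjusted p = 0.0576); in controls it did not pass (log2 1.52 ± 0.68 SE, adjusted p = 0.0833), but did without control 1 (log2 1.92, adjusted p = 0.0235), without control 3 (log2 1.86, adjusted p = 0.0338) and with DESeq2 (adjusted p = 0.0282), and without control 2 it was 0.31 on the log2 scale. The test of the difference between genotypes, which is also the test of the difference between the knockout effects, did not pass (log2 1.61 ± 0.91 SE, adjusted p = 0.778).

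Ccr10 ran against the other receptors. It had 0, 2 and 0 counts in small pre-B Mta2 KO libraries and 311 and 404 counts in pro-B Mta2 KO libraries (5.66 and 8.01 CPM), and 0 counts in all 3 small pre-B controls, against 306 and 209 counts in pro-B controls (5.85 and 3.76 CPM). Small pre-B cells were thus at or near 0 throughout. In Mta2 KO cells the level was 217 times lower in small pre-B cells (2 against 715 counts, 95% exact binomial interval 59.97 to 1799, counting error only). In controls, with 0 against 515 counts, it was at least 124-fold lower when set against a floor of 3 counts over the 3 libraries together, and the exact two-sided 95% limit was 100.5-fold. CCR10 is known from antibody-secreting cells, and Igj, the joining chain of secreted antibody, was likewise lower at the later stage: 0.892 to 8.01 CPM in small pre-B libraries and 717 to 1748 CPM in pro-B libraries. Among pro-B libraries the 2 genes differed in order. Igj was highest in control 1 (1748 CPM) and Ccr10 in Mta2 KO 2 (8.01 CPM). All 9 listed plasmacytoid dendritic genes were also lower in small pre-B cells in both genotypes. The wider list of 8 plasma cell genes found in the files summed to 1536 to 2394 CPM in small pre-B libraries and 1410 to 2656 CPM in pro-B libraries, so the list as a whole overlapped between the stages. Igj is in this list and made up much of the pro-B sums but little of the small pre-B sums. Of the 8 genes 4 were higher and 4 lower in small pre-B cells in Mta2 KO, and 2 higher and 3 lower in controls. The part of antibody-secreting cells or of other cells in the Ccr10 difference was not tested. The gene lies at 11:101172998-101175443 on the minus strand.

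Ccr6 was the least abundant of the genes with counts in every library. It stood at 0.173, 2.41 and 2.66 CPM in small pre-B Mta2 KO libraries and 1.06 and 0.297 CPM in pro-B Mta2 KO libraries, and at 0.111, 2.14 and 0.142 CPM in small pre-B controls and 1.41 and 0.666 CPM in pro-B controls. It varied more within each small pre-B group than between groups, and no test passed (adjusted p = 0.394 for the stages in Mta2 KO cells and 0.811 in controls). The 3 small pre-B libraries with Ccr6 above 2 CPM were also those with much Fcer2a, the mature B cell marker CD23. Fcer2a stood at 2.08, 28.02 and 25.7 CPM in small pre-B Mta2 KO libraries 1 to 3 and 1.73, 28.7 and 3.32 CPM in small pre-B controls 1 to 3. The 14 immature and mature B cell genes found in the files, Fcer2a among them, summed to 1791 to 2555 CPM in small pre-B Mta2 KO libraries and 1593 to 2003 CPM in small pre-B controls. Ms4a1, Cd40, Tnfrsf13c and H2-Aa of this list were likewise highest in the 3 libraries with Ccr6 above 2 CPM. Cr2, Cd55, Faim3 and Ciita were instead highest in small pre-B control 3 (8.55, 163, 114 and 50.1 CPM), where Ccr6 was at 0.142 CPM. The remaining genes of the list showed neither order. The part of such cells in the Ccr6 and Cxcr5 levels was not tested.

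**Figure D2:**
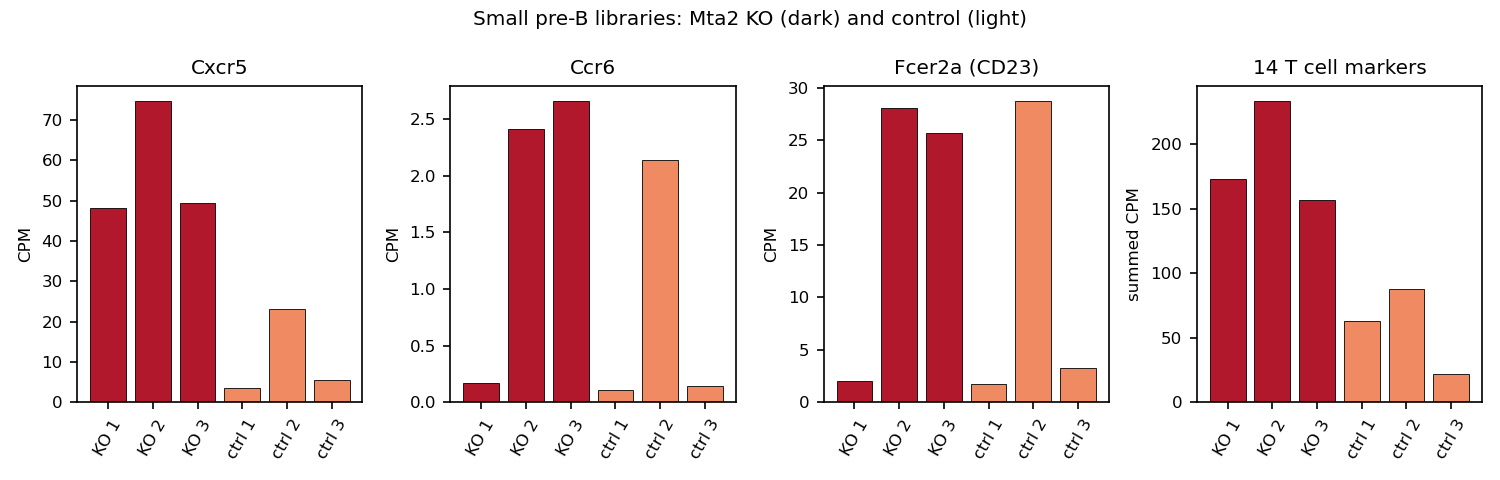
Bars give CPM of Cxcr5, Ccr6 and Fcer2a and the summed CPM of 14 T cell marker genes in each small pre-B library, Mta2 KO 1 to 3 and then control 1 to 3 (axes from 0). Ccr6 and Fcer2a are high in KO 2, KO 3 and control 2, whereas Cxcr5 and the T cell markers are higher in all 3 KO libraries than in all 3 controls.

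Levels of different genes can be compared only per length, as CPM per kilobase of exon. On this scale the order in small pre-B Mta2 KO cells was Cxcr4 (436 ± 100.5, SD), Klf2 (129 ± 49.5), S1pr1 (74.6 ± 9.62), Ccr7 (42.9 ± 2.90), Cxcr5 (22.0 ± 5.72), Ccr6 (0.840 ± 0.658) and Ccr10 (0.0153 ± 0.0264), with n = 3. In small pre-B controls it was Cxcr4 (548 ± 199.5), Klf2 (134 ± 18.2), S1pr1 (56.7 ± 12.8), Ccr7 (45.02 ± 8.88), Cxcr5 (4.13 ± 4.13) and Ccr6 (0.383 ± 0.557), with Ccr10 at 0 (n = 3). In pro-B Mta2 KO cells Cxcr4 (172 ± 4.41) and Klf2 (56.1 ± 4.78) led, followed by Ccr7 (7.62 ± 1.22), S1pr1 (6.13 ± 2.23), Ccr10 (3.96 ± 0.965), Cxcr5 (2.50 ± 0.325) and Ccr6 (0.325 ± 0.258), with n = 2. In pro-B controls the same order held, with Cxcr4 at 205 ± 20.8, Klf2 at 54.7 ± 1.87, Ccr7 at 9.92 ± 1.58, S1pr1 at 5.92 ± 1.67, Ccr10 at 2.78 ± 0.855, Cxcr5 at 1.44 ± 0.385 and Ccr6 at 0.4999 ± 0.254 (n = 2). S1pr1 and Ccr7 changed places between the stages. Neighbours whose ranges of mean ± SD met were Klf2 and S1pr1 in small pre-B Mta2 KO cells. In small pre-B controls these were S1pr1 and Ccr7, Cxcr5 and Ccr6, and Ccr6 and Ccr10, and in pro-B Mta2 KO cells Ccr7 and S1pr1, and S1pr1 and Ccr10. In pro-B controls no neighbours met.

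The question of the knockout is whether loss of Mta2 moved these genes within a stage. In small pre-B cells none of the 7 passed the edgeR test, against 3.02% of all tested genes (1.89% higher, 1.14% lower), and 1, Cxcr5, had an unadjusted p below 0.05. In pro-B cells none passed either, against 0.0353% of all tested genes, and none had an unadjusted p below 0.05. DESeq2 and limma-voom each called Cxcr5 in small pre-B cells and no gene of the 7 in pro-B cells. The difference of the knockout effects passed for none of the 7, against 0% of all tested genes (0 of 14161 with edgeR, 907 at an unadjusted p below 0.05, 58 with DESeq2 and 0 with limma-voom).

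Cxcr5 stood apart in small pre-B cells. The 3 Mta2 KO libraries (48.2 to 74.7 CPM, mean 57.5 ± 14.95 SD) lay above the 3 controls (3.68 to 23.2 CPM, mean 10.8 ± 10.8 SD). It was the only gene of the 7 whose small pre-B groups did not overlap, against 25.0% of all tested genes. The fitted difference was 5.32-fold (log2 2.41 ± 0.60 SE, 95% confidence interval 1.07 to 3.76), and the adjusted p of 0.0622 missed the threshold. Control 2 set much of the spread: without it the difference was 3.63 on the log2 scale (adjusted p = 0.00119) and the difference of the knockout effects became 2.84 (adjusted p = 0.0465). Without the 2 Mta2 KO libraries that held Xist RNA, a fit chosen after seeing the data, it was 2.20 (adjusted p = 0.260). In pro-B cells Cxcr5 stood at 7.15 and 5.95 CPM in Mta2 KO libraries and 3.06 and 4.48 CPM in controls, without overlap and without passing (log2 0.80 ± 0.71 SE, adjusted p = 1); 55.5% of all tested genes did not overlap in these groups of 2.

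Several markers of T cells, some of which carry CXCR5, moved with the same groups. The 14 listed T cell genes summed to 156 to 233 CPM in small pre-B Mta2 KO libraries and 22.0 to 87.9 CPM in small pre-B controls, with 6 of 14 higher and none lower by the test. Cd3e, a defining T cell gene, stood at 8.13, 16.6 and 5.41 CPM in small pre-B Mta2 KO libraries and 0.446, 0.282 and 0.0284 CPM in small pre-B controls. The other 8 of the 14 did not pass. Cd4, of the same list, overlapped between the groups: 0.173, 4.62 and 0.186 CPM in Mta2 KO libraries and 1.11, 3.18 and 0.710 CPM in controls. Among stage markers 12 of the 14 listed pro-B genes and 12 of the 13 listed small pre-B genes did not pass between these groups. The medians of the 2 lists were 0.07 and 0.03 on the log2 scale. Kit was the 1 higher gene, and Il2ra, which is in both lists, the 1 lower gene. Kit, a receptor of early progenitors and pro-B cells, stood at 81.9, 50.9 and 36.3 CPM in small pre-B Mta2 KO libraries and 14.9, 10.9 and 3.64 CPM in small pre-B controls (log2 2.54, adjusted p = 0.0317). Il2ra was lower in small pre-B Mta2 KO cells (log2 -1.36, adjusted p = 0.0259), and neither gene overlapped between the groups, as for 25.0% of all tested genes. The part of T lineage RNA or of the mix of stages in the Cxcr5 and other knockout differences was not tested.

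The other genes gave small fitted differences. In small pre-B cells S1pr1 differed by 0.40 ± 0.24 SE on the log2 scale (interval -0.14 to 0.94, adjusted p = 0.330), with control 3, at 214 CPM, above Mta2 KO libraries 1 and 2. Cxcr4 differed by -0.33 ± 0.24 SE (interval -0.88 to 0.22, adjusted p = 0.425), Ccr7 by -0.07 ± 0.16 SE (interval -0.44 to 0.30, adjusted p = 0.817) and Klf2 by -0.06 ± 0.23 SE (interval -0.59 to 0.47, adjusted p = 0.901). Their libraries overlapped. Ccr6 differed by 1.14 ± 1.15 SE with an interval too wide to place its direction (-1.44 to 3.73), and Ccr10, with at most 2 counts per library, gave no fold change. In pro-B cells both Mta2 KO libraries lay below both controls for Cxcr4 (log2 -0.25 ± 0.30 SE) and Ccr7 (-0.38 ± 0.20 SE), without passing (adjusted p = 1 and 0.919). Ccr10, with 715 counts in pro-B Mta2 KO cells and 515 in pro-B controls, differed by 0.51 ± 0.51 SE, S1pr1 by 0.05 ± 0.30 SE and Klf2 by 0.04 ± 0.29 SE, all with overlapping libraries.

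**Figure D3:**
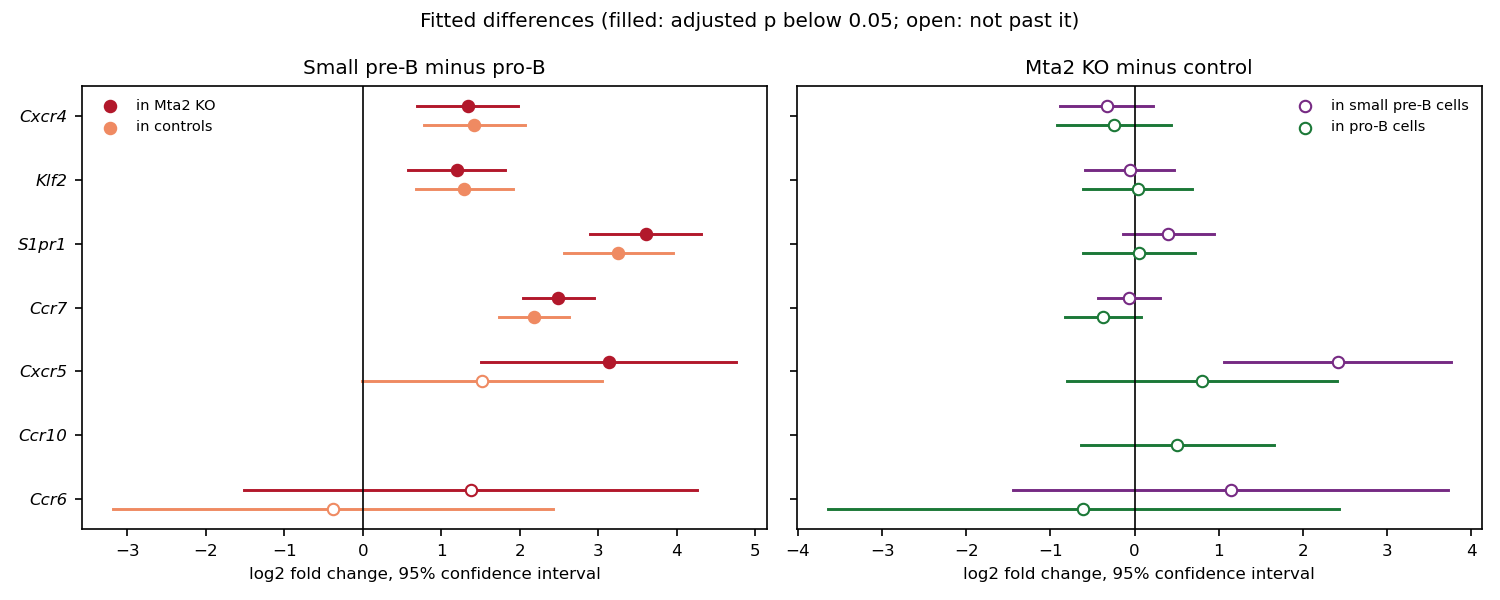
Fitted log2 fold changes with 95% confidence intervals, for small pre-B minus pro-B cells (left, Mta2 KO above controls) and Mta2 KO minus control (right, small pre-B above pro-B cells); filled points passed the test. Ccr10 is drawn only for the knockout in pro-B cells, since its small pre-B counts are at or near 0. The stage intervals of S1pr1, Ccr7, Cxcr4 and Klf2 lie above 0 in both genotypes, and no knockout point is filled.

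KLF2 target genes went in both directions between the stages. Of the 10 listed genes, all tested, 4 were higher and 4 lower in small pre-B cells in Mta2 KO, and likewise 4 and 4 in controls, with a median log2 difference of -0.29 in Mta2 KO cells and -0.25 in controls (all genes -0.02 in both). Over all tested genes 24.0% were higher and 27.3% lower in Mta2 KO cells, and 26.0% and 29.4% in controls. These shares are the background for the stage counts of the later lists as well. S1pr1, Ccr7, Cd55 (decay-accelerating factor) and Cd69 were higher, whereas the lower genes included Itgb7, Plac8 and Cd44. Itgb7, an integrin chain for gut homing, was at 10.1 ± 5.44 CPM in small pre-B and 273 ± 6.77 CPM in pro-B Mta2 KO cells, and at 6.03 ± 3.03 CPM in small pre-B and 253 ± 23.5 CPM in pro-B controls (log2 -4.75 and -5.40). Plasmacytoid dendritic and myeloid marker genes were likewise higher in the pro-B gate, with the sums given above, and their part in the fall was not tested.

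Within small pre-B cells 2 of the 10 KLF2 target genes were higher in Mta2 KO cells and none was lower, with a median log2 difference of 0.16 (all genes 0.01). Over all tested genes 1.89% were higher and 1.14% lower. Plac8, a small cysteine-rich protein, stood at 333, 395 and 355 CPM in Mta2 KO libraries and 98.3, 218 and 101 CPM in controls (log2 1.38 ± 0.29 SE, adjusted p = 0.0427) and passed. Its libraries did not overlap between the groups, as for 25.0% of all tested genes. The call was lost in 11 of 19 alternatives, among them a fit of only the groups compared and leaving out any pro-B library or any small pre-B Mta2 KO library. S1pr1 and Ccr7, the listed targets among the receptors, did not pass, nor did Klf2 itself.

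**Figure D4:**
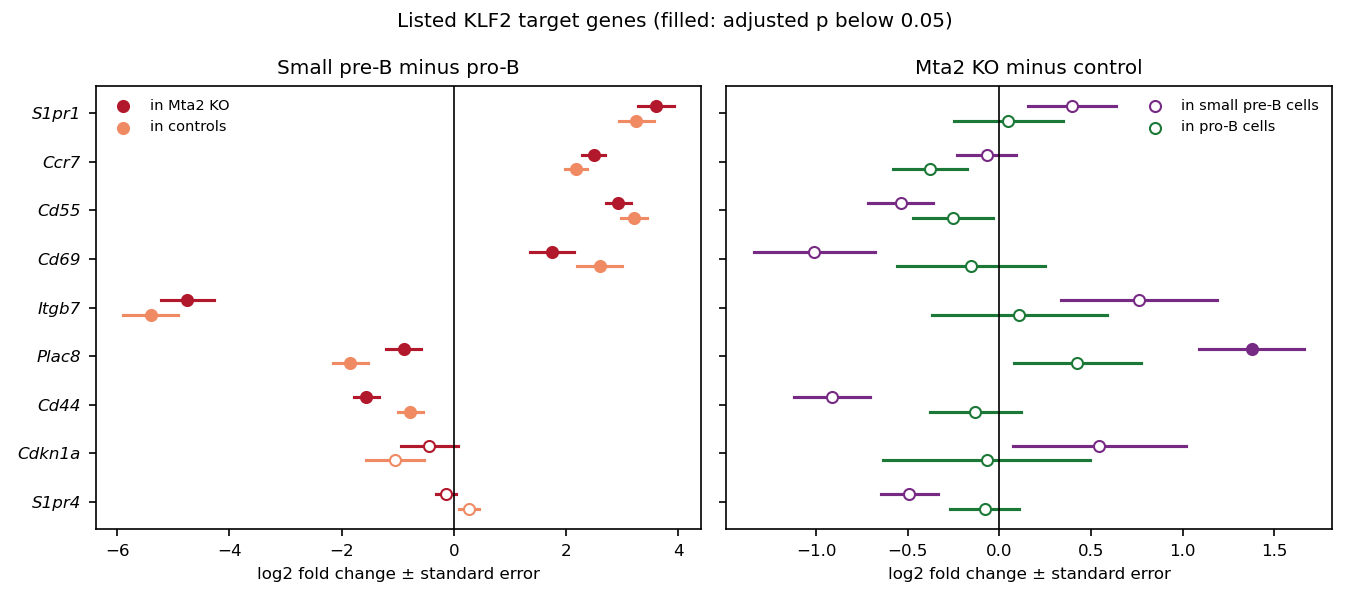
Fitted log2 fold changes with standard errors of 9 of the 10 listed KLF2 target genes, for small pre-B minus pro-B cells (left) and Mta2 KO minus control (right); filled points passed the test. S1pr1, Ccr7, Cd55 and Cd69 lie above 0 and Itgb7, Plac8 and Cd44 below 0 in the stage panel, and Plac8 in small pre-B cells is the filled point of the knockout panel.

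Among the 16 listed regulators and relatives of KLF2, 4 were higher and 4 lower in small pre-B cells in Mta2 KO, and 3 and 3 in controls (median log2 -0.07 and 0.01). Foxo1, which is known to act upstream of Klf2 in lymphocytes, rose with Klf2: it was at 661 ± 41.8 CPM in small pre-B and 151 ± 18.6 CPM in pro-B Mta2 KO cells (log2 2.13, adjusted p = 6.39e-06), and at 561 ± 56.0 CPM in small pre-B and 146 ± 2.62 CPM in pro-B controls (log2 1.95, adjusted p = 9.85e-06). Klf13 also rose (log2 0.83 in Mta2 KO cells and 1.25 in controls). Mapk7, the ERK5 kinase, fell (log2 -0.58 in Mta2 KO cells and -0.66 in controls); without pro-B control 1 the log2 difference in controls was -0.64 and did not pass (adjusted p = 0.0549). None of the 16 passed for the knockout in either cell type; Klf3 came nearest in small pre-B cells (log2 0.41, adjusted p = 0.0651).

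In the sphingosine phosphate pathway, all 17 listed genes were tested, and 3 were higher and 6 lower in small pre-B cells in Mta2 KO, and 3 and 5 in controls (median log2 -0.15 and 0.04). The higher genes were the same in both genotypes: S1pr1, Spns2, which exports the ligand (28.5 ± 5.09 CPM in small pre-B and 9.74 ± 0.0377 CPM in pro-B Mta2 KO cells; 38.0 ± 4.35 CPM in small pre-B and 7.13 ± 1.55 CPM in pro-B controls), and Cd69, whose protein binds S1PR1 and takes it off the surface (33.7 ± 7.24 CPM in small pre-B and 10.1 ± 0.233 CPM in pro-B Mta2 KO cells; 67.9 ± 37.9 CPM in small pre-B and 11.2 ± 0.0366 CPM in pro-B controls). S1pr2, a receptor that opposes migration, fell (log2 -2.07 in Mta2 KO cells and -2.45 in controls). S1pr4 stood at 74.2 ± 4.34 CPM in small pre-B and 81.7 ± 5.39 CPM in pro-B Mta2 KO cells, and at 104 ± 23.8 CPM in small pre-B and 86.4 ± 4.88 CPM in pro-B controls, and did not pass (adjusted p = 0.526 and 0.212). The knockout passed for none of the 17 in either cell type, with S1pr3 nearest in small pre-B cells (21.6 ± 4.60 CPM in Mta2 KO and 9.55 ± 3.38 CPM in controls, log2 1.17, adjusted p = 0.0710).

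Of the CXCL12 axis 6 of 7 listed genes were tested. Cxcr4 and Dpp4, a protease that trims CXCL12, were higher in small pre-B cells in both genotypes (Dpp4 log2 1.71 in Mta2 KO cells and 1.51 in controls), whereas Mif, another ligand of CXCR4, Cd164 and Hmgb1 were lower in both. Cxcl12 was at 0.136 ± 0.0891 CPM in small pre-B and 0.618 ± 0.284 CPM in pro-B Mta2 KO cells, near the level of a few counts, and passed as lower there (adjusted p = 0.0433) and not in controls (adjusted p = 0.113). The knockout passed for none of the 6 in either cell type.

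The 30 tested genes of the list of other chemokine and guidance receptors were mostly lower: 2 were higher and 17 lower in small pre-B cells in Mta2 KO (median log2 -2.45), and 3 and 20 in controls (median -3.32). Over all tested genes 27.3% were lower in Mta2 KO cells and 29.4% in controls. Many of them are receptors of myeloid, natural killer or dendritic cells. Ccr9, a plasmacytoid dendritic marker, was at 2.58 ± 2.76 CPM in small pre-B and 474 ± 3.43 CPM in pro-B Mta2 KO cells, and Cxcr2, the neutrophil receptor, at 0.914 ± 0.935 CPM in small pre-B and 117 ± 26.2 CPM in pro-B Mta2 KO cells. Lpar6 (log2 1.29 in Mta2 KO cells and 1.52 in controls) and Cnr2, the cannabinoid receptor that helps retain immature B cells (log2 1.39 and 2.46), were higher in both genotypes. Within small pre-B cells P2ry13, a nucleotide receptor, was lower in Mta2 KO cells, at 1.96, 1.62 and 0.653 CPM, against 6.08, 3.34 and 5.43 CPM in controls (log2 -1.82, adjusted p = 0.0343), a call lost in 11 of 19 alternatives. Of the 12 tested chemokine ligand genes 7 were lower in small pre-B cells in both genotypes, among them Ccl6 and Ccl9 of myeloid cells, with none higher in Mta2 KO cells and 1 in controls. The 17 ligand genes in the files summed to 35.2 to 70.7 CPM in small pre-B and 183 to 260 CPM in pro-B Mta2 KO libraries. In controls the sums were 8.04 to 34.9 and 187 to 221 CPM. Genes of any list can have passed the count filter only through the pro-B libraries, where they are high. The counts of lower genes therefore describe the lists only.

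Receptor signalling genes divided. Of 45 listed genes 10 were higher and 15 lower in small pre-B cells in Mta2 KO, and 10 and 14 in controls. Rhoh, a small GTPase of lymphocytes, rose (log2 2.38 in Mta2 KO cells and 2.81 in controls), and Rgs2, a brake on G protein signalling, rose (2.15 and 2.39), while Arrb2, the arrestin that silences receptors, fell (-2.45 and -2.57). Within small pre-B cells 2 RGS genes were higher in Mta2 KO cells. Rgs16 stood at 77.0, 76.4 and 55.2 CPM in Mta2 KO libraries and 8.47, 24.9 and 15.9 CPM in controls (log2 2.08 ± 0.37 SE, adjusted p = 0.0299). Rgs10 stood at 72.9, 50.7 and 65.5 CPM in Mta2 KO libraries and 20.3, 21.4 and 23.6 CPM in controls (log2 1.53 ± 0.14 SE, adjusted p = 0.00596), and kept the call in 16 of 19 alternatives. Grk6, a kinase that marks receptors for arrestin, was lower at 210.0, 226 and 200.5 CPM in Mta2 KO libraries and 280.2, 286 and 325 CPM in controls (log2 -0.49, adjusted p = 0.0414). The Rgs16 and Grk6 calls were lost in 11 of 19 alternatives each.

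Of 23 adhesion and selectin genes 3 were higher and 12 lower in small pre-B cells in Mta2 KO, and 5 and 13 in controls (median log2 -1.23 and -1.52). Selplg, the selectin ligand PSGL-1, and Itgb2, the chain of LFA-1 and Mac-1, fell in both (Itgb2 log2 -2.85 in Mta2 KO cells and -2.38 in controls), and Cd24a and Icam2 rose. Itga4, a chain of the VCAM-1 receptor VLA-4, rose in Mta2 KO cells (log2 1.08, adjusted p = 0.000427) and did not pass in controls (log2 0.34, adjusted p = 0.0835). The test of the difference between genotypes passed for none of the 23, Itga4 included. Within small pre-B cells 1 gene of the list was higher and 1 lower in Mta2 KO cells. The lower one was Pecam1, which encodes CD31 (226, 221 and 235 CPM, against 333, 282 and 406 CPM in controls; log2 -0.58, adjusted p = 0.0482), a call lost in 11 of 19 alternatives.

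**Figure D5:**
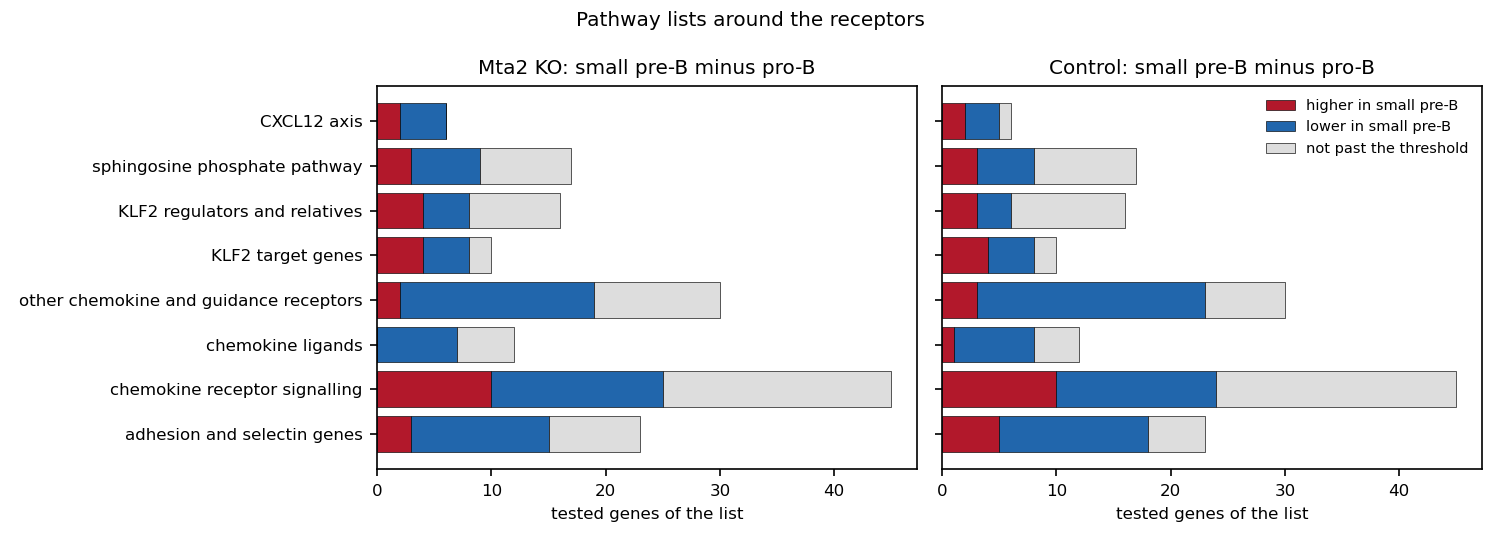
Number of tested genes of each pathway list that were higher, lower or not past the threshold in small pre-B against pro-B cells, in Mta2 KO (left) and control (right) cells; bars start at 0 and some genes are in more than 1 list. Lower genes outnumber higher ones in the lists of other chemokine receptors, ligands and adhesion genes, and the counts of KLF2 targets are 4 and 4 in both.

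Over the 143 tested genes of these lists that are not among the 7, the knockout in small pre-B cells passed for 7 (4.90%, against 3.02% of all tested genes; 4 higher, 3 lower; 46 at an unadjusted p below 0.05, 32 with DESeq2 and 7 with limma-voom). The knockout in pro-B cells passed for 0 (10 at an unadjusted p below 0.05, 1 with DESeq2, 0 with limma-voom), as did the difference of the knockout effects (16, 1 and 0 by the same measures). The lists were chosen with earlier results of these data known, and their counts describe them only.

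Genes with the most similar profile were ranked by the root mean square difference of log2 CPM over the 10 libraries, each gene centred on its own mean. Cxcr4 lay nearest to Zbtb5 (0.10), Aftph (0.12) and Zfp712 (0.13), Klf2 to Zfp53 (0.14) and Sertad3 (0.14), and Ccr7 to Plekha2 (0.12), Neil1 (0.13) and Camk2d (0.14). S1pr1 lay nearest to Abca1 (0.25), Bmf (0.28) and Nuak1 (0.29). Cxcr5 had looser matches in Fam101a (0.40), Col18a1 (0.42) and Enpep (0.47), and Ccr10 in Tbc1d8 (0.48), Lin28a (0.48) and Sirpa (0.49). The nearest genes to Ccr6 were Egr3 (0.87), Dll1 (1.02) and Cacna1h (1.03), which is no close match. None of the 7 was among the nearest genes of another.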

How the data were processed

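RNA was sequenced from 10 libraries of 4 groups, with cell type and genotype taken from the sample labels. The authors deposited unnormalized counts of reads for each gene, with a file for every library; per the file headers, reads over exons were counted with featureCounts 1.4.3-p1, an mm10 annotation and no strand option. CASAVA 1.82, STAR and mm9 are listed in the submitters' processing notes, whereas the coordinates in the files are mm10; the STAR version is not given in the sources used here. The kit keeps strand, so genes that overlap others on the opposite strand would be less certain; no exon of the 7 genes overlaps another gene's exon.

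Counts were tested with edgeR 4.0.16 in R 4.3.3: filterByExpr (minimum count 10, minimum total 15), TMM scaling and 1 robust quasi-likelihood model of the 4 group means fitted to all 10 libraries, with Benjamini-Hochberg adjustment over 14161 genes and a threshold of 0.05. Fitted fold changes use a prior count of 0.125 and profiles a prior of 2. The pipeline was tested on simulated data. Reads carried no molecular identifiers, so count intervals and floors describe counting error alone. DESeq2 1.42.0 and limma 3.58.1 (voom) were alternatives, as were other scalings, filters, a fit of only the groups compared, the numbers in sample titles as a block and leaving out each library.

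The 7 genes, the 8 pathway lists and the 10 marker lists were chosen with earlier results of these data known. The genes named are the 7, Mta2, up to 4 genes per list and comparison with the smallest p among those past the threshold (up to 2 where none passed), and the 3 nearest profiles per gene among those with a mean of at least 2 CPM, leaving out predicted genes and Rik clones. Fcer2a, S1pr4, Cxcr2, Lpar6, Cnr2, Cd24a, Icam2, Hmgb1 and some values of listed genes in further comparisons were added after their values were seen. So were Ms4a1, Cd40, Tnfrsf13c, H2-Aa, Cr2, Faim3 and Ciita. A few genes that the rule names are not reported here.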

Additional observations from a re-analysis of the deposited data

How the results depend on the processing

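Of 602 recomputed values of the 7 genes, 569 kept direction and side of the threshold, 2 lost the call, 8 gained it and 23 changed sign; the cause was not tested. With the title number as a replicate block, genes called numbered 0 for the knockout in pro-B cells and 153 in small pre-B cells (5 and 428 without it), and of the 7 genes 1, Cxcr5, was called in small pre-B cells (log2 2.82, adjusted p = 0.0466); deviations of same-numbered libraries correlated at 0.0147 to 0.155, not all above 0.1, so the numbers were not taken as pairs, although each small pre-B Mta2 KO library correlated best with the control of its own number, a hint from the data only. For small pre-B control 3 the number in the file differs from the one in its title and equals that of Mta2 KO 2, so its number is uncertain; its correlation was 0.0449 with Mta2 KO 3 (same title number) and -0.0333 with Mta2 KO 2, and no block with the number in the file was fitted. For the knockout in pro-B cells, genes called numbered 182 with DESeq2, 148 with limma-voom, 8 with no count filter, 8 with 1 CPM in every library of a group, 856 with only the compared groups fitted and 0 without the Xist libraries, with 0 to 25 over fits leaving out 1 library. For small pre-B cells they numbered 1869 with DESeq2, 0 with only the compared groups fitted, 0 without the Xist libraries, and 1 (without control 1) to 1667 (without control 2) leaving out 1 library. Cxcr5 was the 1 gene of the 7 called there by DESeq2, by limma-voom and without control 2 (range 0 to 1). The difference of the effects had 58 genes with DESeq2 and 0 to 40 leaving out 1 library, with 0 to 1 of the 7. At a log2 change of at least 1, the stage difference held 4305 genes in Mta2 KO cells and 4683 in controls; leaving out 1 library gave 4673 to 8657 genes in Mta2 KO cells.

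Sign changes were limited to uncalled values. Leaving out 1 library, the pro-B knockout log2 ranges were -1.79 to 0.026 for Ccr6, -0.38 to 0.38 for S1pr1 and -0.052 to 0.12 for Klf2. In small pre-B cells they were -0.54 to 0.0079 for Cxcr4, -0.20 to 0.084 for Ccr7 and -0.41 to 0.15 for Klf2, and without the Xist libraries 0.015, 0.043 and 0.46. For the difference of the effects they were -0.29 to 0.25 for Cxcr4 and -0.44 to 0.12 for Klf2, and 0.26 and 0.42 without the Xist libraries. For the stages in controls they were -2.96 to 0.26 for Ccr6 and -0.30 to 0.076 for Mta2. Depth limits Ccr6 and Ccr10 most, with 5 or fewer counts in several small pre-B libraries.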
